A study of Mus musculus with 4 samples.

Results

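The mitochondrial ribosomal protein genes were taken as the genes whose symbol starts with Mrpl or Mrps followed by a number. This gave 76 genes of the 18298 genes with a read in any sample, 47 named for the large subunit (Mrpl) and 29 for the small subunit (Mrps). All 76 had at least 10 reads in at least 2 samples and were among the 14123 genes tested. RNA was sequenced from primary rib chondrocytes, the cells that make cartilage, which were isolated from E18.5 mouse embryos of the C57BL/6 background and kept to passage P1. There were 2 control samples (WT, genotype Senp6f/f, with no Cre) and 2 mutant samples (Senp6-Mut, genotype Dermo1-Cre;Senp6f/f), so that both groups carried the floxed Senp6 alleles and only the mutants carried Cre. Senp6 encodes a protease that removes SUMO2/3 chains from proteins, and Dermo1-Cre is expressed from the Dermo1 (Twist2) locus in mesenchymal progenitors, so other cells of a rib preparation need not have recombined. The labels do not state which embryos, or how many, each sample came from, and p-values here measure the spread between these samples. The question of the comparison was whether the mRNA of the large and small subunit genes differed between Senp6-Mut and WT chondrocytes.

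Mitochondria have their own ribosome, which translates the few proteins encoded in mitochondrial DNA, all of them subunits of the respiratory chain and the ATP synthase. Its ribosomal RNAs come from mitochondrial DNA, whereas all of its proteins are encoded in the nucleus, made in the cytosol and imported, so that 2 genomes have to be matched. Part of the proteins have a counterpart in bacterial ribosomes and part are found only in mitochondria. The large subunit joins amino acids and the small subunit reads the mRNA. Chondrocytes work in cartilage, a tissue without blood vessels, and are known for a strong reliance on glycolysis.

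The samples held 21.02 to 30.99 M reads counted on genes. Senp6 itself had RPKM values (reads scaled by the gene length and the library total) of 10.8 and 18.0 in WT and 12.02 and 8.07 in Senp6-Mut, in the order of the replicate numbers. The groups overlapped for Senp6 (log2 fold change -0.56, SE 0.28, adjusted p = 0.41), a value per gene does not separate the floxed exons from the rest, and the group names below follow the labels. Of the 13 chondrocyte markers tested, among them Col2a1 and Acan, all 13 were lower in both mutants than in both controls. Their summed RPKM was 1037 to 1060 in WT and 519.0 to 655.0 in Senp6-Mut, of which Col2a1 alone had 609 and 659 in WT and 333.5 and 445.3 in Senp6-Mut. The 4 osteoblast markers tested were also lower (summed RPKM of the list 69.8 to 172 in WT and 19.2 to 40.2 in Senp6-Mut), as were all 5 macrophage and blood markers tested (15.96 to 18.9 and 7.38 to 10.8). Of the 11 skeletal muscle markers tested 8 were higher in both mutants (37.5 to 115 and 199 to 221). Of the 8 fibroblast markers 4 were lower and 1 higher in both mutants (8771 to 12570 and 6492 to 8893), and of the 4 endothelial markers tested 1 was lower and 1 higher (0.762 to 1.30 and 0.809 to 0.842). Over all tested genes, 22.8% were lower and 25.4% higher in both mutants than in both controls. Hba-a1 of the blood list and Pax7 of the muscle list were at 0 reads in 3 of 4 samples. Senp6-Mut 2 was the only sample with abundant Xist reads (11354, against 2 to 5), so that embryo sex differed within the mutant group. The part of these shifts in the values of the mitochondrial ribosomal protein genes was not tested, and in a bulk sample fewer cells of a type cannot be told apart from less RNA per cell.

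The 76 genes lay on 17 chromosomes, with none on X or Y in the GENCODE annotation of GRCm38. Their promoters are shown first, because genes for mitochondrial proteins are known to share sites for NRF1, for the ETS factor GABP (also called NRF2) and for YY1. RefSeq windows of 300 bases (250 before and 50 after the start, build GRCm38.p6) were matched for 67 of the 76 genes, with 73 windows in all. The letters CCGGAAG of an ETS site, on either strand, were in 24 of 73 windows (32.9%), against 16.1% of the 13814 windows of tested genes and 11.6% of all 21262 protein-coding windows. The letters AAGATGG of a YY1 site were in 13 windows (17.8%), against 6.74% and 6.24%, and the NRF1 letters, GCGCA and GCGC with any base between them, in 12 windows (16.4%), against 9.16% and 6.38%. Other letters were near or below the shares of the tested genes: GGGCGG (GC box) 52.1% against 61.6%, CCAAT 41.1% against 37.4%, CACGTG (E-box) 9.59% against 9.65%, TATAAA 6.85% against 7.34% and TGACGTCA (CRE) 2.74% against 2.93%. The median GC content was 58.3% against 60.7%. A match is a description of the letters and not a bound site, and the shares were not tested.

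**Figure D1:**
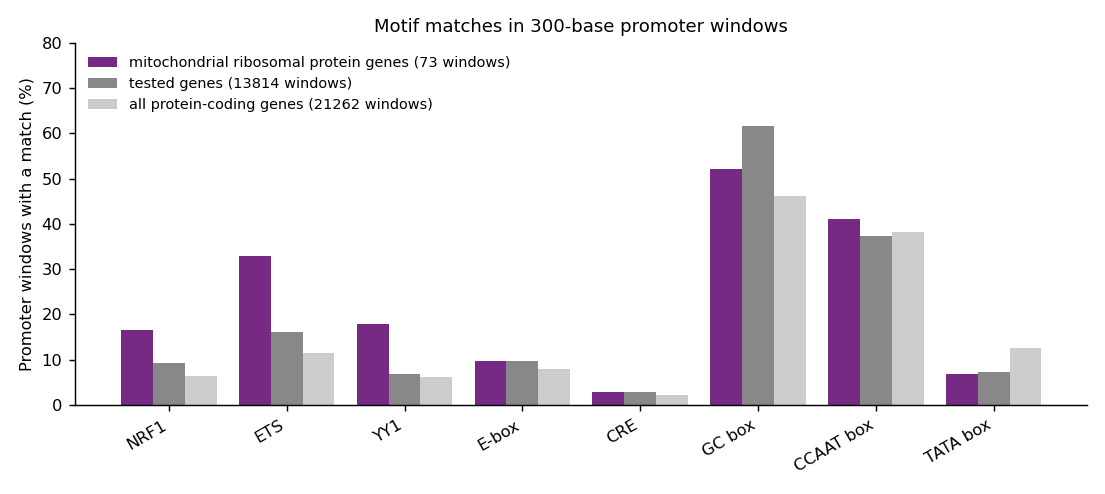
Share of 300-base promoter windows (y axis, %) with at least 1 match on either strand for each motif (x axis), for the windows of mitochondrial ribosomal protein genes, of tested genes and of all protein-coding genes. The ETS, YY1 and NRF1 bars of the mitochondrial ribosomal protein genes are 32.9%, 17.8% and 16.4%, above both other sets, whereas the GC box bar is below that of tested genes.

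Stretches just upstream of the first exon are printed for 5 of the genes, to show these letters in members described below. Mrpl52 carried the lowest log2 fold change of the set, and Mrps27 depended on which control was used. Mrps12 shares its stretch with the start of Sars2. In the printed stretches, Mrpl43 held a pair of ETS matches and Mrpl45 a pair of NRF1 matches. Sequences are from RefSeq, build GRCm38.p6, written 5′ to 3′ along the strand of the gene, and capitals mark the letters of the NRF1, ETS, YY1 and CCAAT motifs on either strand.
Mrpl52 (chr14:54426709-54426908, plus strand): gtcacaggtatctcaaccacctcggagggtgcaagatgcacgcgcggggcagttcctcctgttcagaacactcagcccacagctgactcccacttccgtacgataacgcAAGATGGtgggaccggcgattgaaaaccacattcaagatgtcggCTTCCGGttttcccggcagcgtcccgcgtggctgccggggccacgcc
Mrpl43 (chr19:45006443-45006557, minus strand): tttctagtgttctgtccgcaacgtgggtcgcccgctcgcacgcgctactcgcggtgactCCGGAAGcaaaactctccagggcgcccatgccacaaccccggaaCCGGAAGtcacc
Mrpl45 (chr11:97315516-97315715, plus strand): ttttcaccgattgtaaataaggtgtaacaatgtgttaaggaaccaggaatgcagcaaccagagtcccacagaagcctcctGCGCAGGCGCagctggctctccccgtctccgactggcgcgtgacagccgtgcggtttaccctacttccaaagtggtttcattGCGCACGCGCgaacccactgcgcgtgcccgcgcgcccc
Mrps12 (chr7:28741822-28741991, minus strand): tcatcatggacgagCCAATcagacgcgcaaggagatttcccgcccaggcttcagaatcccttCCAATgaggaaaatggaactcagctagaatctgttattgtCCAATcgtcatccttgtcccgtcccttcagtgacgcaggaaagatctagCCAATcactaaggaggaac
Mrps27 (chr13:99344706-99344785, plus strand): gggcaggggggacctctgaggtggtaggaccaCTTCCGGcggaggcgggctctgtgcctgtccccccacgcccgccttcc
The ETS and YY1 letters thus stood together in the 200 bases before Mrpl52, and the 170 bases before Mrps12 held 4 CCAAT matches. The 300-base window of Mrps12, which extends beyond the printed stretch on both sides, is among those counted with an ETS and a YY1 match. Windows also held more than the printed stretch for Mrpl45 (3 NRF1 matches), Mrpl52 (2 ETS matches) and Mrps27 (a YY1 match). Neighbouring genes were close in several cases. For 17 of the 76 genes (22.4%), a protein-coding gene started on the other strand within 1000 bases upstream, head to head. The share was 9.61% of the 13442 tested genes that could be located. Pairs whose starts overlap, such as Mrps11 and Mrpl46, were not counted. Mrps12 and Sars2, which encodes the mitochondrial seryl-tRNA synthetase, start 172 bases apart, and their log2 fold changes were -0.40 and -0.29. Mrpl54 and Apba3 start 26 bases apart, with log2 fold changes of -0.43 and -0.37, and Mrps27 and Ptcd2 start 81 bases apart, with -0.34 and 0.04. Mrps18b and Ppp1r10 (45 bases) had 0.11 and 0.04, whereas Mrpl50 and Zfp189 (83 bases) had 0.06 and -0.27. Over the 17 pairs the signs were the same in 9 and opposite in 8. Exonic bases were shared with another protein-coding gene by 17 members, among them Mrps6 with Slc5a3 on the same strand (159 bases) and Mrps25 with Nr2c2 on the opposite strand (3533 bases), and as the sources used here do not state that counting used the strand, reads of such pairs may not be separable.

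With edgeR, 0 of the 76 mitochondrial ribosomal protein genes differed between Senp6-Mut and WT at an adjusted p under 0.05, and 0 of all 14123 genes (0%) passed. The smallest adjusted p of a member was 0.202, for Mrpl52. At an unadjusted p under 0.05 there were 4 of 76 members, all lower in Senp6-Mut (Mrpl52, Mrpl23, Mrpl54 and Mrps12), whereas 15.6% of all tested genes were under that level, 6.28% being lower. With DESeq2, 697 of all genes passed (4.94%) and again 0 members, with 3 members under an unadjusted p of 0.05, where 13.9% of all genes were. The differences were small. The median absolute log2 fold change of the 76 genes was 0.11, 2 genes were beyond 0.5 and 0 beyond 1. For 75 of 76 genes the 95% interval of the log2 fold change lay within 1 unit of 0, and for 72 it included 0, so that these samples place almost every member within 2-fold in either direction without showing that the groups were alike. The intervals ran from -1.12 (Mrps6) to 0.73 (Mrpl33).

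The signs were less even than those of other genes. A log2 fold change under 0 was found for 57 of 76 members (75%), against 48.6% of all tested genes, and the median was -0.07 against 0.01. On RPKM, which is scaled by library totals, limma on log2(RPKM + 1) gave 44 of 76 members under 0, with a median of all genes of 0.04. Samples were also compared by their TMM-scaled values. Both mutants were below both controls for 30 of 76 members (39.5%), against 22.8% of all tested genes, and both mutants were above both controls for 4 members (5.26%), against 25.4%. With scaling by library totals these counts were 23 (background 19.2%) and 4 (background 28.3%).

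The order of the samples differed with the control used. Set against WT 2 alone, both mutants were below for 57 of 76 members (75%, background 38.6%) and above for 8 (10.5%, background 37.7%). Set against WT 1 alone, both mutants were below for 38 members (50%, background 39.4%) and above for 32 (42.1%, background 45.4%). WT 2 was the highest of the 4 samples for 39 members and the lowest for 5. WT 1 was the highest for 26 and the lowest for 31, so that it stood at an end of the order for most members. Without WT 2 the medians stayed under 0, at -0.08 for the large and -0.17 for the small subunit genes. Senp6-Mut 1 was the lowest for 26 members and the highest for 3, and Senp6-Mut 2 the lowest for 14 and the highest for 8. The 2 controls lay further apart (median absolute log2 gap 0.19) than the 2 mutants (0.09), and for 44 of 76 members the gap between the controls exceeded the absolute log2 fold change.

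**Figure D2:**
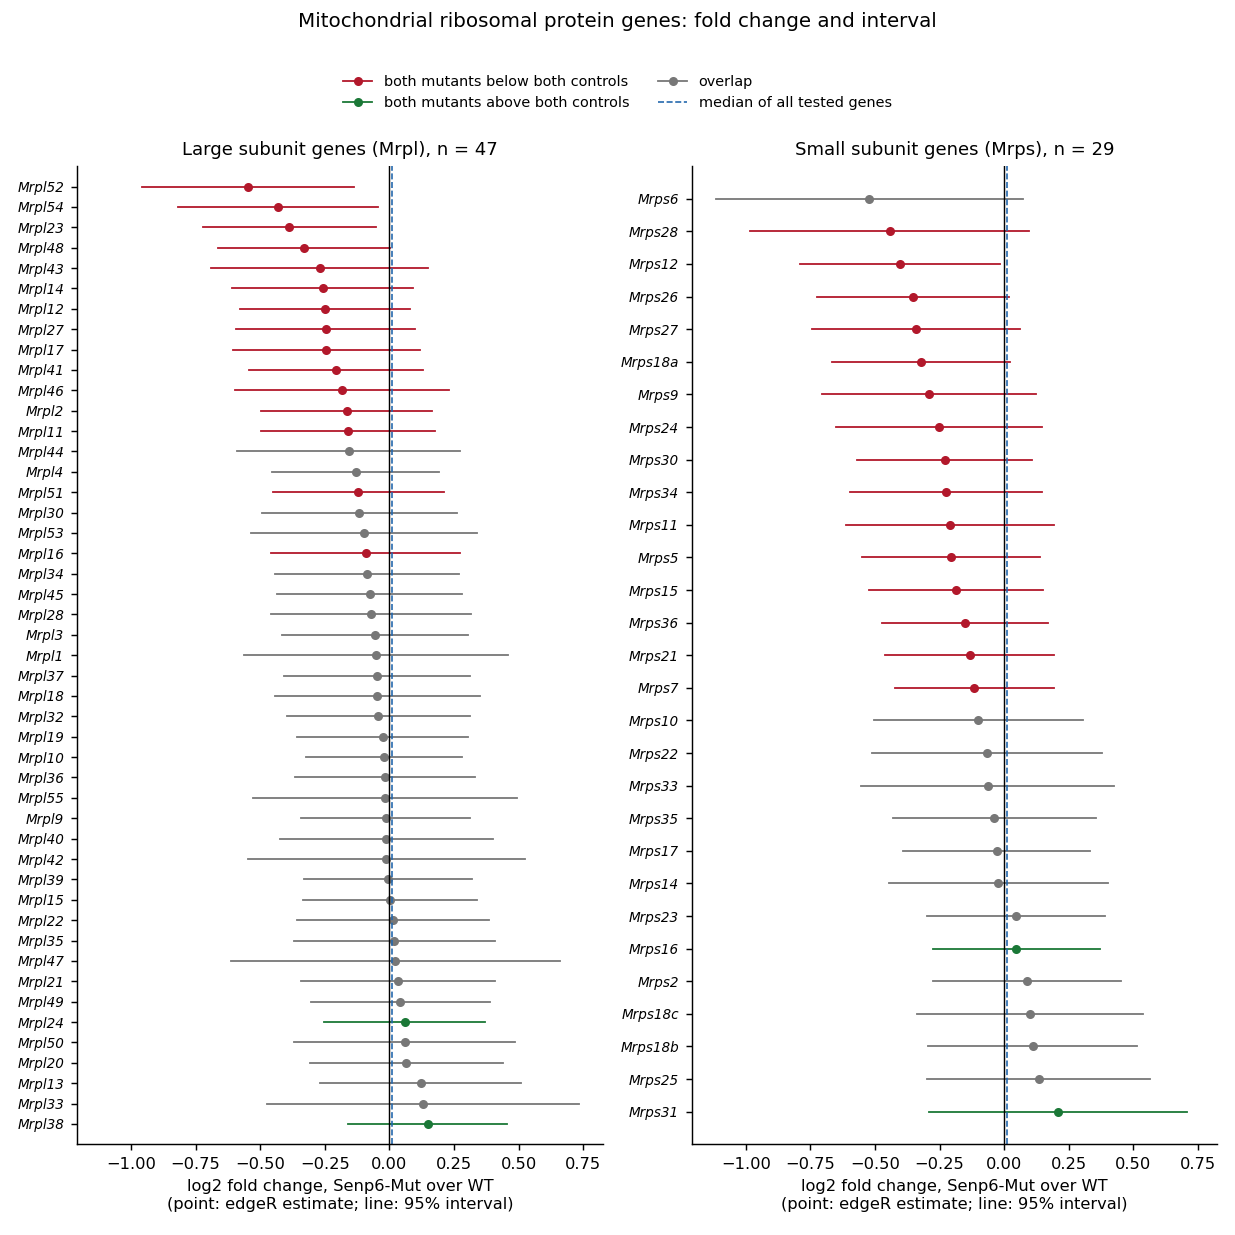
Log2 fold change of Senp6-Mut over WT (x axis) for each mitochondrial ribosomal protein gene (y axis), large subunit on the left and small subunit on the right, with the edgeR estimate as a point and its 95% interval as a line; colour gives the order of the 2 mutant and 2 control samples on TMM-scaled values. The intervals of 72 of 76 genes cross 0, and red (both mutants below both controls, 30 genes) marks most genes at the top of both panels, Mrps6 in grey being an exception, while green marks 4 genes.

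Among the 47 large subunit genes, 35 had a log2 fold change under 0, with a median of -0.05 and quartiles of -0.16 and -0.0017 on the log2 scale. Both mutants were below both controls for 15 of them (31.9%, against 22.8% of all tested genes) and above for 2 (all tested genes 25.4%). With library totals these counts were 12 and 2, where the shares of all tested genes were 19.2% and 28.3%. Mrpl52, a mitochondria-specific protein near the central protuberance, had RPKM values of 119 and 93.9 in WT and 72.7 and 77.7 in Senp6-Mut. Every mutant value of Mrpl52 was under every control value, and WT 1 stood highest (log2 fold change -0.55, SE 0.17, adjusted p = 0.202). Mrpl54, a mitochondria-specific protein placed at the stalk, had 93.0 and 79.5 in WT and 60.0 and 72.1 in Senp6-Mut (log2 fold change -0.43, SE 0.16, adjusted p = 0.268). Mrpl23, the counterpart of the bacterial protein that lines the mouth of the exit tunnel, had 65.7 and 63.3 in WT and 47.5 and 54.1 in Senp6-Mut (log2 fold change -0.39, SE 0.14, adjusted p = 0.251). Of these genes Mrpl23 had the closest controls, and the groups overlapped for none of the 3. Mrpl48 had 31.1 and 33.2 in WT and 24.7 and 28.0 in Senp6-Mut (log2 fold change -0.33, SE 0.14, adjusted p = 0.322), again without overlap. For Mrpl43, with 26.0 and 20.6 in WT and 20.5 and 19.3 in Senp6-Mut, WT 2 was close to Senp6-Mut 1 (log2 fold change -0.27, SE 0.17, adjusted p = 0.528). Its log2 fold change was -0.07 without WT 1 and -0.48 without WT 2, and that of Mrpl52 was -0.34 and -0.76. Mrpl43 shares 385 exonic bases with Twnk, the mitochondrial DNA helicase gene on the opposite strand.

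The other end of the large subunit was nearer to 0. Mrpl38 of the central protuberance had RPKM values of 26.8 and 29.2 in WT and 31.3 and 32.5 in Senp6-Mut, with every mutant value above every control value (log2 fold change 0.15, SE 0.13, adjusted p = 0.648). Mrpl33, a small protein with a bacterial counterpart, had 28.7 and 42.8 in WT and 32.5 and 48.2 in Senp6-Mut, so that the samples alternated between the groups (log2 fold change 0.13, SE 0.25). Mrpl13 had 41.0 and 54.9 in WT and 52.4 and 54.9 in Senp6-Mut, and Mrpl20 had 47.01 and 60.9 in WT and 57.8 and 58.3 in Senp6-Mut. Mrpl50 had 9.37 and 13.0 in WT and 12.2 and 11.8 in Senp6-Mut. In these last 3 genes WT 1 alone lay apart, and the log2 fold changes of 0.12 (Mrpl13), 0.07 (Mrpl20) and 0.06 (Mrpl50) turned negative without it.

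Among the 29 small subunit genes, 22 had a log2 fold change under 0, with a median of -0.13 and quartiles of -0.25 and -0.02. Both mutants were below both controls for 15 of them (51.7%, against 22.8% of all tested genes) and above for 2 (all tested genes 25.4%). With library totals these counts were 11 and 2, where the shares of all tested genes were 19.2% and 28.3%. Mrps6, the counterpart of bacterial S6, had RPKM values of 40.5 and 28.7 in WT and 20.3 and 29.5 in Senp6-Mut. WT 1 was high, Senp6-Mut 1 was low and the other samples were close together (log2 fold change -0.52, SE 0.25, adjusted p = 0.381). Mrps28, which has a bacterial counterpart, had 24.4 and 17.7 in WT and 14.8 and 17.2 in Senp6-Mut, with WT 2 just above Senp6-Mut 2 (log2 fold change -0.44, SE 0.22, adjusted p = 0.415). The log2 fold change of Mrps28 was -0.17 without WT 1 and -0.71 without WT 2, and that of Mrps6 was -0.23 and -0.80. Mrps12, the counterpart of the bacterial decoding centre protein S12, had 49.9 and 41.7 in WT and 33.9 and 37.6 in Senp6-Mut, without overlap (log2 fold change -0.40, SE 0.16, adjusted p = 0.299, and -0.24 without WT 1). Mrps26, a mitochondria-specific protein, had 31.5 and 27.0 in WT and 23.1 and 24.2 in Senp6-Mut (log2 fold change -0.35, SE 0.15, adjusted p = 0.345, and -0.21 without WT 1). Mrps27, a mitochondria-specific protein of the pentatricopeptide repeat family, had 14.9 and 20.1 in WT and 13.6 and 14.8 in Senp6-Mut. Here WT 2 was the sample apart, and WT 1 and Senp6-Mut 2 were nearly equal (log2 fold change -0.34, SE 0.17, adjusted p = 0.403, and -0.17 without WT 2).

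At the upper end Mrps31, a mitochondria-specific protein, had RPKM values of 5.39 and 7.37 in WT and 7.48 and 7.70 in Senp6-Mut, with WT 1 low and the other 3 samples together (log2 fold change 0.21, SE 0.21, adjusted p = 0.693, and 0.02 without WT 1). Mrps25 had 2.28 and 2.98 in WT and 2.80 and 3.14 in Senp6-Mut (log2 fold change 0.13, SE 0.18), with overlap. Mrps2, the counterpart of bacterial S2, had 18.8 and 24.2 in WT and 23.3 and 23.7 in Senp6-Mut (log2 fold change 0.09). As with the upper end of the large subunit, WT 1 was the lowest sample for each of Mrps31, Mrps25 and Mrps2.

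**Figure D3:**
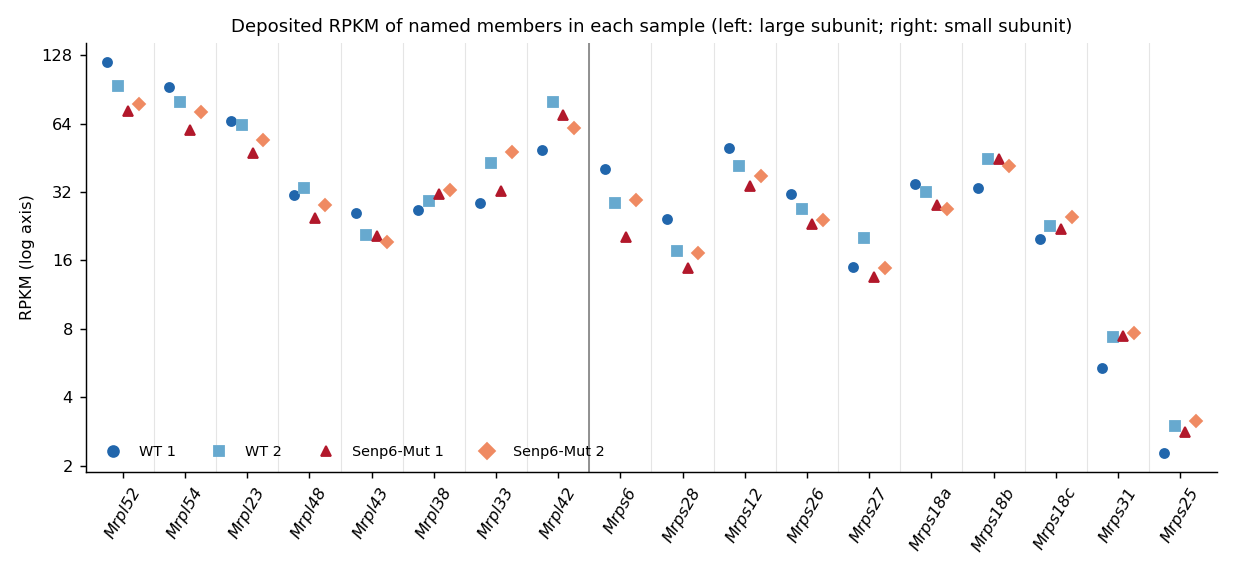
Deposited RPKM (y axis, log scale) of 18 named mitochondrial ribosomal protein genes (x axis) in each of the 4 samples, large subunit left of the grey line and small subunit right of it. For Mrpl52 the 2 mutant samples (72.7 and 77.7) lie below both controls (119 and 93.9), whereas for Mrps31 only WT 1 (5.39) lies apart from the other 3 samples.

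The comparison of the subunits gave a small difference. The median log2 fold change of the large subunit genes exceeded that of the small subunit genes by 0.08. The summed RPKM of the 47 large subunit genes was 1354 and 1446 in WT (1400 ± 65.2, SD, n = 2) and 1275 and 1364 in Senp6-Mut (1319 ± 63.5, SD, n = 2). That of the 29 small subunit genes was 784 and 812 in WT (798 ± 19.6, SD, n = 2) and 723 and 760 in Senp6-Mut (741 ± 25.7, SD, n = 2). The large subunit sums overlapped between the groups, and the small subunit sums did not. The ratio of the large to the small sum was 1.73 and 1.78 in WT and 1.76 and 1.80 in Senp6-Mut, so that the ratios of the groups overlapped and WT 1 was the lowest. With 2 samples against 2, an exact permutation test cannot give a two-sided p below 0.333, and no p is given for these sums.

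**Figure D4:**
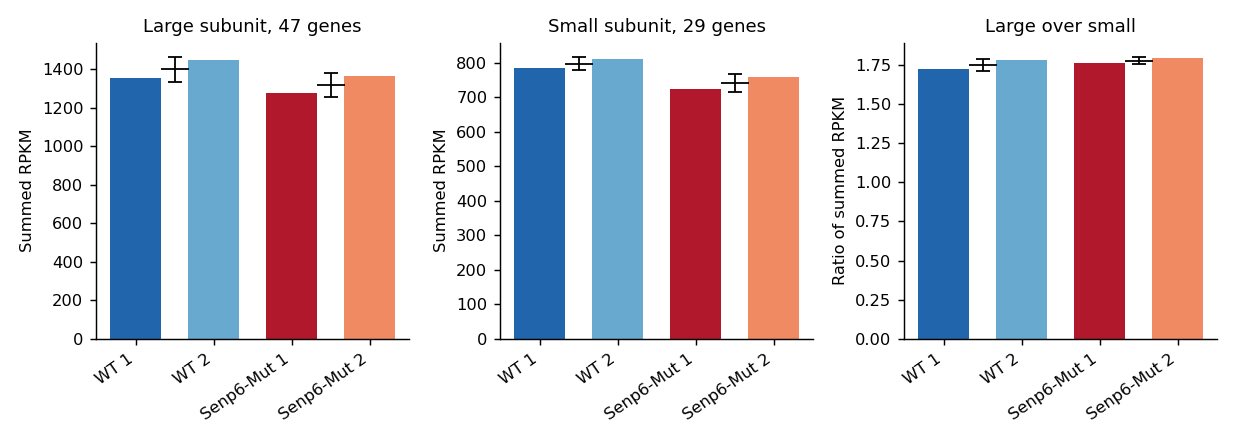
Summed RPKM (y axes) of the 47 large and 29 small subunit genes, and the ratio of the sums, in each of the 4 samples (bars), with the mean and SD of each group of 2 in black. The small subunit sums of Senp6-Mut (723 and 760) lie under those of WT (784 and 812), and the ratio stays between 1.73 and 1.80.

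**Figure D5:**
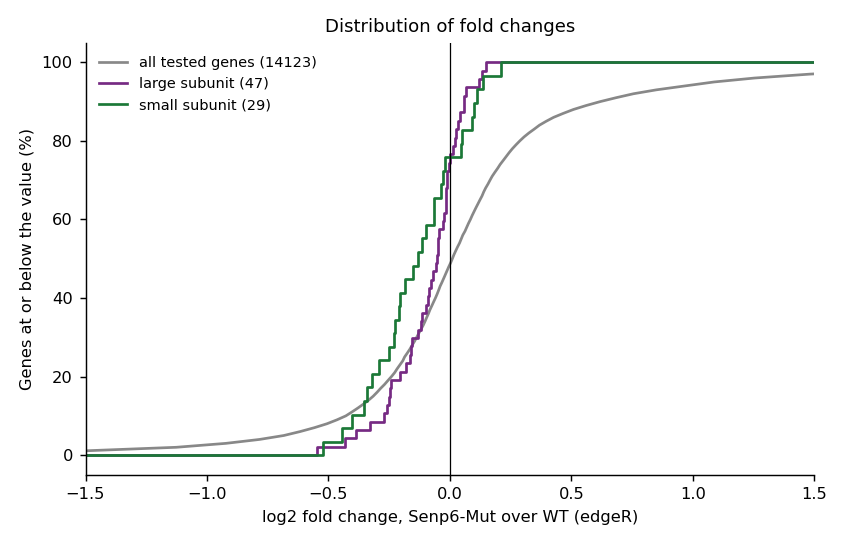
Cumulative share of genes (y axis, %) at or below each log2 fold change of Senp6-Mut over WT (x axis, shown from -1.5 to 1.5) for the 47 large and 29 small subunit genes and all 14123 tested genes. Both subunit curves cross 0 above the curve of all genes, at 35 of 47 and 22 of 29 genes, and both are narrower, with values from -0.55 to 0.21.

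The names of 3 genes do not match where the protein is found. Mrps30 and Mrps18a sit in the large subunit of the assembled ribosome, and Mrps36 is now known as a component of the oxoglutarate dehydrogenase complex. With the first 2 counted as large and Mrps36 left out, the medians were -0.06 for 49 large and -0.11 for 26 small subunit genes, and the difference between them was 0.05. Mrps30 had RPKM values of 14.0 and 14.2 in WT and 12.4 and 12.4 in Senp6-Mut (log2 fold change -0.23, SE 0.14, adjusted p = 0.507), the replicates being nearly equal within each group. Mrps36 had 41.4 and 42.4 in WT and 39.6 and 38.0 in Senp6-Mut (log2 fold change -0.15, SE 0.13, adjusted p = 0.652).

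Mrps18a, Mrps18b and Mrps18c are paralogs of bacterial S18, and a ribosome carries Mrps18a in the large subunit and the other two in the small subunit. Mrps18a had RPKM values of 34.8 and 32.1 in WT and 28.1 and 27.0 in Senp6-Mut, without overlap (log2 fold change -0.32, SE 0.14, adjusted p = 0.355). Mrps18b had 33.2 and 44.8 in WT and 44.9 and 41.5 in Senp6-Mut (log2 fold change 0.11, SE 0.17), and Mrps18c had 19.8 and 22.7 in WT and 22.0 and 24.9 in Senp6-Mut (log2 fold change 0.10, SE 0.18). For Mrps18b and Mrps18c the groups overlapped. A related sequence listed as Gm15760 took 35 and 71 reads in WT and 60 and 70 in Senp6-Mut, against 748 to 1493 reads on Mrps18b, so that the counts of Mrps18b may be shared with it.

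By place in the ribosome, the counts below stand against 48.6% of all tested genes with a log2 fold change under 0, 22.8% with both mutants below both controls and 25.4% with both above. All 5 stalk genes, whose proteins recruit translation factors, had a log2 fold change under 0 (median -0.16). Both mutants were below both controls for 3 of these 5, Mrpl54, Mrpl12 and Mrpl11. Mrpl12 had RPKM values of 51.8 and 56.6 in WT and 43.2 and 50.7 in Senp6-Mut. Of the 7 genes of the central protuberance, the knob that contacts the small subunit and tRNA, 6 were under 0 (median -0.18), 4 had both mutants below (Mrpl52, Mrpl48, Mrpl27 and Mrpl46) and Mrpl38 had both above. Of the 8 genes around the exit tunnel, through which the new protein leaves towards the inner membrane, 5 were under 0 (median -0.04), Mrpl23 and Mrpl17 had both mutants below and Mrpl24 had both above. The classes are small and were not compared by a test. Origin made little difference to the median, which was -0.08 for the 46 genes with a bacterial counterpart (18 with both mutants below). For the 30 mitochondria-specific genes it was -0.07 (12 with both mutants below). That class held Mrps18b, although a paralog of S18, and Mrps36, while the 46 held Mrps18a and Mrps18c.

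The mRNA levels themselves ranged widely per unit of gene length. Over the 4 samples the mean RPKM was between 2.80 and 106, a 38.0-fold range, with a median of 25.2 for the large and 22.2 for the small subunit genes. Each member had between 130 and 2130 reads in a sample. In the large subunit Mrpl52 (90.8), Mrpl54 (76.1) and Mrpl42 (64.7) had the highest mean RPKM and Mrpl1 (2.91), Mrpl19 (5.41) and Mrpl35 (5.84) the lowest. In the small subunit Mrps21 (106), Mrps15 (52.9) and Mrps16 (49.5) were highest and Mrps25 (2.80), Mrps31 (6.98) and Mrps14 (9.11) lowest. Mrps21 had 111 and 108 in WT and 95.9 and 110 in Senp6-Mut, overlapping on this scale although its TMM-scaled values did not. Mrpl42 had 49.1 and 79.2 in WT and 69.6 and 60.9 in Senp6-Mut, with WT 1 lowest and WT 2 highest (log2 fold change -0.01). Several of the lowest genes have a long listed length, 6076 bases for Mrps25, 5016 for Mrpl19 and 3695 for Mrpl35, and reads covered 34.2% of the length of Mrps25 in Senp6-Mut 2, against a median of 97.1% over the members in that sample.

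Short genes differed from long genes in all of the data. The 33 members under 1000 bases had a median log2 fold change of -0.12, against -0.10 for all 919 tested genes of such length. The 43 longer members had a median of -0.06, against 0.02 for all 13204 longer genes. Replicates of the same group differed as well in short genes. Over the 919 short tested genes, the median log2 difference was 0.09 for WT 1 from WT 2 and -0.13 for Senp6-Mut 1 from Senp6-Mut 2. For the 33 short members these medians were -0.04 and -0.07. A difference by length between samples thus cannot be told apart from one between the groups. Across the 76 members, log2 length and log2 fold change had a Pearson's r of 0.23 (Spearman's rho 0.18), against 0.075 (0.139) over all tested genes. The log2 difference of WT 1 from WT 2 and the log2 fold change had an r of -0.67 (rho -0.66) across the members, and both are made from the same control values. Members are not independent replicates, and no p is given.

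The medians of the other lists of mitochondrial genes were also under 0 in the edgeR fit of all 4 samples, and 0 of their genes had an adjusted p under 0.05 with edgeR. The 7 mitochondrial ribosomal proteins known by other symbols had a median log2 fold change of -0.16, and 4 (57.1%) had both mutants below, against 22.8% of all tested genes. Gadd45gip1 (mL64) was lowest, with RPKM values of 18.4 and 16.2 in WT and 12.9 and 14.6 in Senp6-Mut (log2 fold change -0.38, SE 0.15, adjusted p = 0.307). Ict1, a ribosome-borne rescue factor, had a log2 fold change of -0.27, Aurkaip1 -0.24, Dap3 of the small subunit -0.16 and Mrp63 -0.01. Chchd1 (0.14) and Ptcd3 (0.12) were positive and overlapped between the groups. The 27 assembly factors had a median of -0.15 (-0.20 to -0.08 with 1 sample left out). Mterfd2, which works with the methyltransferase Nsun4 in large subunit assembly, had RPKM values of 90.2 and 72.2 in WT and 36.3 and 43.6 in Senp6-Mut, well apart (log2 fold change -1.07, SE 0.17, adjusted p = 0.0833). DESeq2 gave Mterfd2 an adjusted p of 5.8e-06, the lowest of its 12 alternatives, which reached up to 0.11 with limma on log2(RPKM + 1). Nsun4 itself had 4.17 and 4.75 in WT and 5.12 and 5.01 in Senp6-Mut (log2 fold change 0.14). Mettl17, a factor of small subunit assembly, had 10.3 and 8.30 in WT and 5.70 and 5.30 in Senp6-Mut (log2 fold change -0.80, SE 0.21, adjusted p = 0.144, and 0.0477 with DESeq2 in a range of 0.00344 to 0.629 over the alternatives). Mettl15, the methyltransferase of the small subunit RNA, had 1.86 and 2.57 in WT and 1.64 and 1.31 in Senp6-Mut (log2 fold change -0.63, SE 0.29, adjusted p = 0.375).

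The 18 translation factors had a median of -0.11 (0.02 without WT 2), the 22 genes for mitochondrial aminoacyl-tRNA synthesis -0.11 (-0.23 to -0.04 with 1 sample left out) and the 17 regulators of mitochondrial transcription and biogenesis -0.04. The last median was 0.02 without Senp6-Mut 1 and 0.0036 on log2(RPKM + 1). Pet112, a subunit of the amidotransferase that makes mitochondrial glutaminyl-tRNA, had RPKM values of 4.35 and 3.53 in WT and 1.93 and 2.53 in Senp6-Mut (log2 fold change -0.87, SE 0.25, adjusted p = 0.174). Ppargc1b, a coactivator of mitochondrial biogenesis, had 0.976 and 0.523 in WT and 0.512 and 0.320 in Senp6-Mut (log2 fold change -0.88, SE 0.45, adjusted p = 0.413). The genes of the factors whose letters were counted in the promoters had log2 fold changes of -0.04 (Nrf1), 0.10 (Gabpa), 0.02 (Gabpb1) and -0.06 (Yy1). The cytosolic ribosomal protein genes (92) had a median of -0.12, with 75 under 0 (81.5%) and 41 with both mutants below (44.6%). The respiratory chain genes (87) had a median of -0.14, with 69 under 0 (79.3%) and 36 with both mutants below (41.4%). The shares over all tested genes were 48.6% under 0 and 22.8% with both mutants below.

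Leaving out a control changed which members passed. Without WT 2, 9 members had an adjusted p under 0.05 with edgeR, all lower in Senp6-Mut (Mrpl52, Mrpl54, Mrpl23, Mrpl43, Mrps6, Mrps28, Mrps12, Mrps26 and Mrps18a), where 20.0% of all genes passed and 10.6% were lower, and 43 of 76 members were under 0. Without WT 1, 67 members were under 0 and 1 passed, Mrps27 (log2 fold change -0.52, SE 0.14, adjusted p = 0.0452), where 4.77% of all genes passed, and the adjusted p of Mrps27 was 0.365 or more under the other alternatives. Without Senp6-Mut 1 or Senp6-Mut 2, 0 members passed, where 3.01% and 1.01% of all genes did. With no filter on low counts (1.56% of all genes passed) or with the replicate numbers as a block (0.828%), 0 members passed. A lone sample was assumed to vary like the other group. Beside the counts of members under 0, the median log2 fold change of all tested genes was 0.01 without WT 2 and -0.007 without WT 1.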

How the data were processed

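RNA of 4 samples (2 WT, 2 Senp6-Mut) was enriched for poly(A) mRNA and sequenced by a service. The authors deposited, for each gene and sample, the read count without normalization, the RPKM, which is the count scaled by the listed gene length and the total of counted reads, and coverage (the share of a gene's length with reads, in percent). Genes without a read were set to 0. The submitters' processing notes name the build mm9 and SAMtools, and the aligner, the counting tool and the annotation are not given in the sources used here. Locations were taken from GENCODE vM21 (GRCm38) by Entrez identifier. The members, the companion and marker lists and the rule for named genes were chosen with earlier results of these data known.

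Counts of the 14123 genes that had 10 or more reads in 2 or more samples were fitted in edgeR 4.0.16 under R 4.3.3 (quasi-likelihood, TMM, robust), and Benjamini-Hochberg adjustment ran over all of them. Standard errors came from the F statistic and 95% intervals from its degrees of freedom. Alternatives were DESeq2 1.42.0, RLE and upper-quartile factors, other filters, limma 3.58.1 on log2(RPKM + 1) and log2(RPKM + 0.1), a replicate block and leaving out each sample. The TMM factors were between 0.966 and 1.03. The chi-square of counts over its degrees of freedom was 49.7 between the controls and 24.0 between the mutants, so that each sample was counted separately. Scripts were tested on simulated data. The genes named were the 5 highest and 5 lowest fold changes and the 3 highest and lowest RPKM of each subunit, the Mrps18 paralogs, Mrps30, Mrps36, the ribosomal proteins under other symbols, the 5 companions with the largest absolute change and the ribosome classes by group. Further genes, such as promoter neighbours, were chosen after their values were seen, as were the counts of sample order with a sample left out.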

Additional observations from a re-analysis of the deposited data

How the results depend on the processing

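The number of all genes past an adjusted p of 0.05 was 0 with edgeR and 697 with DESeq2, 286 with no filter on low counts, 117 with the replicate block and 143 to 2823 when 1 sample was left out. The number of mitochondrial ribosomal protein genes past it stayed at 0 with each other tool, factor, filter and block and was 0 to 9 when 1 sample was left out. The replicate differences of WT and of Senp6-Mut had a correlation of -0.0422 across genes. Whether the samples were paired is not stated in the labels and cannot be settled from this value. The median log2 fold change of the large subunit genes (-0.0516) was -0.00082 on log2(RPKM + 1), -0.00031 on log2(RPKM + 0.1) and -0.123 to -0.0351 with 1 sample left out. The excess of the large over the small subunit median (0.0817) was 0.0515 with the genes placed as in the assembled ribosome and 0.0233 to 0.0907 with 1 sample left out. The counts of members with both mutants above (4) or below (30) both controls became 6 to 32 and 32 to 57 with 1 sample left out. Over all tested genes the share above rose from 25.4% to between 34.5% and 45.4%. The share below rose from 22.8% to between 32.2% and 39.4%.

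Of 44 genes followed, 0 changed sign with DESeq2, RLE or upper-quartile factors or either filter. On log2(RPKM + 1) and log2(RPKM + 0.1) the genes that did were Mrpl19 (0.0118 and 0.0137), Mrpl42 (0.0605 and 0.0619), Mrps14 (0.0254 and 0.0285) and Mrp63 (0.0245 and 0.027), and on the latter Mrpl1 (0.0021). Mrpl42 had 0.0172 with the replicate block. Leaving out 1 sample gave log2 fold changes of -0.136 to 0.256 for Mrpl50, -0.0882 to 0.206 for Mrpl20, -0.0535 to 0.289 for Mrpl13, -0.159 to 0.387 for Mrpl33, -0.227 to 0.12 for Mrpl1, -0.0975 to 0.0404 for Mrpl19, -0.127 to 0.151 for Mrpl35, -0.297 to 0.314 for Mrpl42, -0.0604 to 0.224 for Mrps2, -0.0684 to 0.284 for Mrps18b, -0.0247 to 0.282 for Mrps25, -0.214 to 0.155 for Mrps14, -0.00193 to 0.0675 for Mrps16, -0.0872 to 0.387 for Chchd1, -0.168 to 0.458 for Ptcd3 and -0.106 to 0.0755 for Mrp63. Of the 44, 12 changed sign without WT 1, 2 without WT 2, 1 without Senp6-Mut 1 and 5 without Senp6-Mut 2. The causes were not tested. Each group had 2 samples, and the effect of depth was not tested.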
